A study of Homo sapiens with 94 samples.

Results

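The 6 genes described here encode the cofactors that share the TEAD transcription factors: the co-activators YAP1 and WWTR1 (the gene of TAZ), and the vestigial-like proteins VGLL1, VGLL2, VGLL3 and VGLL4. They were picked out by gene symbol and not by a filter on measured values, though with earlier results of these data known. Each matched 1 of the 20239 gene IDs of the expression table. Their levels were read in tumors that NCI-H226 cells, an established human line of malignant pleural mesothelioma with a deletion of NF2, formed under the skin of the right flank of female CB17 SCID mice. In the 94 tumors, 15 mice were untreated, 19 received vehicle (ethanol, Solutol and glucose) and 60 received a single oral dose of K-975, a covalent inhibitor that occupies the lipid pocket of TEAD proteins, at 30, 100 or 200 mg/kg. Vehicle and 200 mg/kg were given in 20 mL/kg and the lower doses in 10 mL/kg, so for 30 and 100 mg/kg the volume differs from that of vehicle and its effect cannot be told apart from that of the dose. The tumors came from 3 separate studies, collected 1 h, 3-6 h or 24 h after the dose. In the 1 h and 24 h studies each treatment was a single cage group of 5 mice (4 for vehicle at 24 h), and an effect of the cage cannot be told apart from that of the treatment. In the 3-6 h study vehicle (cage groups 2 and 3), 30 mg/kg (8 and 9), 100 mg/kg (6 and 7) and 200 mg/kg (4 and 5) each had 10 mice in a pair of cage groups, without a label for the hour at which each cage group was taken. Every tumor is from the same cell line, which is a single donor and a single model. The SCID host still has fibroblasts, vessels and myeloid cells but lacks mature T and B cells.

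TEAD proteins bind DNA but activate transcription poorly on their own, and what they do depends on which partner sits on them. When the Hippo kinases are inactive, YAP1 and TAZ enter the nucleus, bind TEAD and switch on growth genes. The VGLL proteins have no DNA-binding domain either and contact TEAD through a short Tondu motif, on a surface that overlaps that of YAP1 and TAZ. VGLL4 is known as a repressor that competes with YAP1, VGLL1 and VGLL3 have been described as co-activators with tumor-promoting roles, and VGLL2 is a skeletal muscle cofactor.

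A few libraries (200 mg/kg at 1 h replicate 1, 100 mg/kg at 24 h replicate 5 and 30 mg/kg at 24 h replicate 1) held 8531, 7196 and 702 genes with an FPKM of 1 or more, against 11344 to 11665 in the other 91, and they were left out of the means and tests unless stated. FPKM counts fragments per unit of transcript length and per unit of library size, so levels of different genes can be set side by side, but these libraries were enriched with capture probes, and capture efficiency differs between genes by an unknown amount. Mesothelial markers were abundant in the 91 tumors, with a median FPKM of 612 for CALB2 (calretinin), 255 for MSLN (mesothelin) and 29.1 for WT1, whereas UPK3B was low at 1.503. NF2 was listed at 0 in 80 of the 91 and reached at most 0.244. The labels give each tumor its own animal number within its study, so replicates are tumors of separate mice.

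The genes of VGLL3, VGLL4 and WWTR1 lie on chromosome 3, that of YAP1 on chromosome 11, that of VGLL2 on chromosome 6 and that of VGLL1 on the X chromosome. In the table, counted from 1 on GRCh38, YAP1 (ENSG00000137693.13) spans chr11:102110461-102233423, WWTR1 (ENSG00000018408.14) chr3:149517235-149736714, VGLL3 (ENSG00000206538.8) chr3:86937969-86991119 and VGLL4 (ENSG00000144560.14) chr3:11556070-11724979. VGLL2 (ENSG00000170162.13) spans chr6:117265558-117273565 and VGLL1 (ENSG00000102243.12) chrX:136532152-136556807. GENCODE 29 places YAP1, VGLL1 and VGLL2 on the plus strand and the others on the minus strand, and all 6 are protein coding. Exons of VGLL4 overlap exons of ATG7 on the opposite strand by up to 1596 bases, those of YAP1 overlap the antisense gene AP000942.2 by up to 432 and those of WWTR1 overlap WWTR1-AS1 by up to 402. Whether strand was used in counting is not given in the sources used here, so it is unknown whether reads of these pairs were told apart.

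Because the drug acts on TEAD, the 250 bases before each RefSeq start of the 6 genes (11 starts, GRCh38.p14) were searched for the letters of the TEAD motif, GGAATG, and of the AP-1 motif, TGANTCA, each on both strands. The TEAD letters were in 2 of the 11 windows, 1 of YAP1 and 1 of VGLL1, and in 11.9% of the windows of all 35116 starts. In YAP1 they begin 162 bases before the start. The AP-1 letters were in 0 of the 11 windows and in 6.57% of all windows. The YAP1 window is shown for its match, in capitals, and the VGLL3 window because VGLL3 was the member with the lowest adjusted p against vehicle. They lie at chr11:102110197-102110446 on the plus strand and at chr3:86991150-86991399 on the minus strand.
YAP1: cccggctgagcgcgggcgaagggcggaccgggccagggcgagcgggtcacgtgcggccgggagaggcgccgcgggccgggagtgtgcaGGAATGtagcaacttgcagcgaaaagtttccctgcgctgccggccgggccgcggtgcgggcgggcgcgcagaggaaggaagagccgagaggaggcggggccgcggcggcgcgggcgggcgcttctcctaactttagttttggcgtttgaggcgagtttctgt
VGLL3: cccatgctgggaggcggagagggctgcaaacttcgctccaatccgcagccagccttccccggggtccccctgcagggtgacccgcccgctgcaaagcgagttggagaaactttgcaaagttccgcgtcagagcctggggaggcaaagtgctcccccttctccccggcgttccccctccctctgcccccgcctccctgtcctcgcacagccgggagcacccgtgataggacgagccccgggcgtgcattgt
The windows are 72.0% and 67.6% G or C. A match is a description of the letters in these windows and says nothing of TEAD binding there.

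The members differed widely in level. VGLL3 was highest, with a mean of 139 ± 21.1 FPKM (SD, n = 91) and a range of 94.5 to 179.7. VGLL4, the repressor, followed with 122 ± 18.4 (83.9 to 186), and YAP1 with 72.8 ± 7.32 (57.5 to 94.0). The spreads of VGLL3 and VGLL4 overlap, and VGLL3 was above VGLL4 in 65 of the 91 tumors and below it in 26. Both were above YAP1 in 91 of 91 tumors.

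WWTR1 stood far below its paralog, with a mean of 13.9 ± 3.77 FPKM (6.86 to 27.7), and was below YAP1 in 91 of 91 tumors. The ratio of YAP1 to WWTR1 in a tumor was 5.59 ± 1.51 (SD, n = 91), from 2.79 to 10.3. VGLL2 had a mean of 0.171 ± 0.208 FPKM, was above 0 in 48 of the 91 tumors and reached at most 0.793. VGLL1 was listed at 0 in all 91, and in the other 3 libraries as well. By mean FPKM, 97.0% of the 20239 genes were lower than VGLL3, 96.6% lower than VGLL4, 93.7% lower than YAP1 and 71.2% lower than WWTR1. Of the 7 skeletal muscle markers, CKM was listed at 0 in all 91 tumors and ACTA1 reached at most 0.180. However, 2 of the 7 had an FPKM of 1 or more in 4 or more tumors. The summed FPKM of the list reached 5.76 in cage group 7 (100 mg/kg, 3-6 h). This is a sum over 7 genes and cannot be set against the level of VGLL2 alone.

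YAP1 varied least between tumors of a group. The SD of its log2(FPKM + 1) around the group means was 0.13, and 20.7% of the 1029 genes of like level (within 0.5 on that scale) varied less. The SD was 0.20 for VGLL3 and 0.20 for VGLL4, for which 78.2% and 79.1% of the genes of like level varied less, and 0.33 for WWTR1, with 69.4%. Spearman's rho between any 2 of these 4 genes, over deviations from group means in 91 tumors, lay between -0.17 and 0.08. These are descriptions, and the points share library and depth.

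The genes whose deviations were most like those of VGLL3 over the 91 tumors were MFAP5 (rho = 0.64), a microfibril protein of the matrix, IFNGR1 (0.63), a chain of the interferon-gamma receptor, and TRAM1 (0.63), which acts in protein translocation into the endoplasmic reticulum. For YAP1 they were SAMD4A (0.52), a transcript with only an RP11 clone name (0.52) and EVA1C (0.48). For WWTR1 they were DSC2 (0.42), a desmosomal cadherin, IFT22 (0.42) and LBHD1 (0.42), and for VGLL4 they were SNRK (0.40), EFNA4 (0.39) and NDUFA8 (0.39). The highest values for WWTR1 and VGLL4 were thus lower than those for VGLL3.

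The main comparison asked whether K-975 changed the cofactor transcripts. It was tested with limma on log2(FPKM + 1) over the 13036 genes with FPKM of 1 or more in 4 or more tumors, with Benjamini-Hochberg adjustment over those genes within each comparison and a threshold of 0.05, and fold changes are on that scale. YAP1, WWTR1, VGLL3 and VGLL4 passed the filter and VGLL1 and VGLL2 did not. In the 9 comparisons of a dose with vehicle of the same study, 0 of the 36 tests of a cofactor passed, and 3 had an unadjusted p under 0.05, all of them at 3-6 h. Over all genes, 0%, 0.00767% and 0% passed at 30, 100 and 200 mg/kg at 1 h. The shares were 0.0153%, 0.43% and 0.069% at 3-6 h, and 0.0384%, 1.12% and 7.41% at 24 h. In all studies the 3 doses share their vehicle tumors, so their values are not independent.

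YAP1 stayed within a narrow range. At 24 h it was 69.6, 65.9, 81.6 and 69.3 FPKM in the vehicle tumors and 60.5, 81.4, 66.9, 65.3 and 73.6 at 200 mg/kg. The groups overlap, and the log2 fold change was -0.04 (SE 0.090, 95% interval -0.22 to 0.13, limma adjusted p = 0.825). Over the 9 comparisons its log2 fold changes ran from -0.15 (200 mg/kg at 1 h) to 0.09 (100 mg/kg at 24 h), and its 95% intervals reached no further than -0.33 and 0.28. At 3-6 h, with 10 tumors a group, YAP1 was 75.4 ± 7.72 FPKM (SD) with vehicle, and 72.5 ± 4.44, 79.4 ± 9.64 and 74.2 ± 5.20 with the 3 doses in rising order.

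VGLL4 also overlapped between groups at each dose and time. At 24 h it was 123, 129, 151 and 126 FPKM with vehicle and 120.2, 122, 118, 172 and 147 at 200 mg/kg, a log2 fold change of 0.02 (SE 0.134, 95% interval -0.24 to 0.29, limma adjusted p = 0.947). Its log2 fold changes over the 9 comparisons ran from -0.16 (100 mg/kg at 1 h) to 0.06 (30 mg/kg at 24 h), and its intervals reached -0.41 and 0.34.

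The log2 fold changes of WWTR1 over the 9 comparisons ran from 0.01 (200 mg/kg at 24 h) to 0.40 (200 mg/kg at 3-6 h), with no adjusted p below 0.405. At 24 h it was 17.8, 20.1, 9.46 and 11.2 FPKM with vehicle and 11.4, 11.1, 16.1, 13.6 and 20.1 at 200 mg/kg, which overlap (log2 fold change 0.01, 95% interval -0.43 to 0.45, limma adjusted p = 0.989). The mean FPKM there was lower than with vehicle, at 14.4 against 14.7, and the log2 fold change was -0.032 under quantile normalization. At 200 mg/kg and 3-6 h the 10 tumors ranged from 11.6 to 27.7 with a median of 16.1, against 8.83 to 16.3 with a median of 11.7 in the 10 vehicle tumors. Of those 10 tumors, 5 were above all vehicle tumors, and the log2 fold change of 0.40 (SE 0.146, 95% interval 0.11 to 0.69) had an adjusted p of 0.405 by limma. The share of all genes that separate as far was not computed, so counts of tumors beyond all vehicle tumors, here and below, are descriptions. The ratio of YAP1 to WWTR1 was 6.47 ± 1.85 in the vehicle tumors and 4.66 ± 0.995 at 200 mg/kg (SD, n = 10 each).

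VGLL3 had the lowest adjusted p of the members against vehicle, although the largest log2 fold change was that of WWTR1. At 3-6 h the 10 vehicle tumors ranged from 141 to 172 FPKM with a median of 152, and the 5 untreated tumors of that study from 139 to 178. At 100 mg/kg the 10 tumors ranged from 94.7 to 144 with a median of 127, and 9 of them were below all vehicle tumors. The log2 fold change was -0.33 (SE 0.087, 95% interval -0.50 to -0.15) with an adjusted p of 0.0582 by limma, just over the threshold. At 3-6 h the SEs, intervals and p-values, for each member, rest on the spread of tumors within cage groups. They leave out variation between cage groups, of which each dose had only a pair. At 200 mg/kg, 6 of 10 tumors were below all vehicle tumors (95.3 to 162, median 133), with a log2 fold change of -0.20 (SE 0.087, limma adjusted p = 0.571). At 30 mg/kg, 3 of 10 were (102 to 162), with -0.11 (limma adjusted p = 0.838).

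As at 3-6 h, VGLL3 passed in no comparison of a dose with vehicle at 1 h or 24 h over the 91 libraries. Groups at these times held only 4 or 5 tumors. At 24 h it was 112, 124, 144 and 159.9 FPKM with vehicle and 127, 99.92, 149, 147 and 113 at 200 mg/kg, a log2 fold change of -0.09 (95% interval -0.35 to 0.17, limma adjusted p = 0.756). At 100 mg/kg and 24 h the value was -0.14 (adjusted p = 0.707) and at 30 mg/kg 0.00 (adjusted p = 1.00, limma). With all 94 libraries, among them the replicate that lists all 6 genes at 0, the 30 mg/kg value at 24 h was -1.41 for VGLL3, -1.23 for YAP1 and -1.36 for VGLL4, each past the threshold (limma adjusted p = 0.0432, 0.0436 and 0.0483). At 1 h the 3 doses gave 0.04, 0.15 and 0.06, each with a limma adjusted p of at least 0.953.

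**Figure D1:**
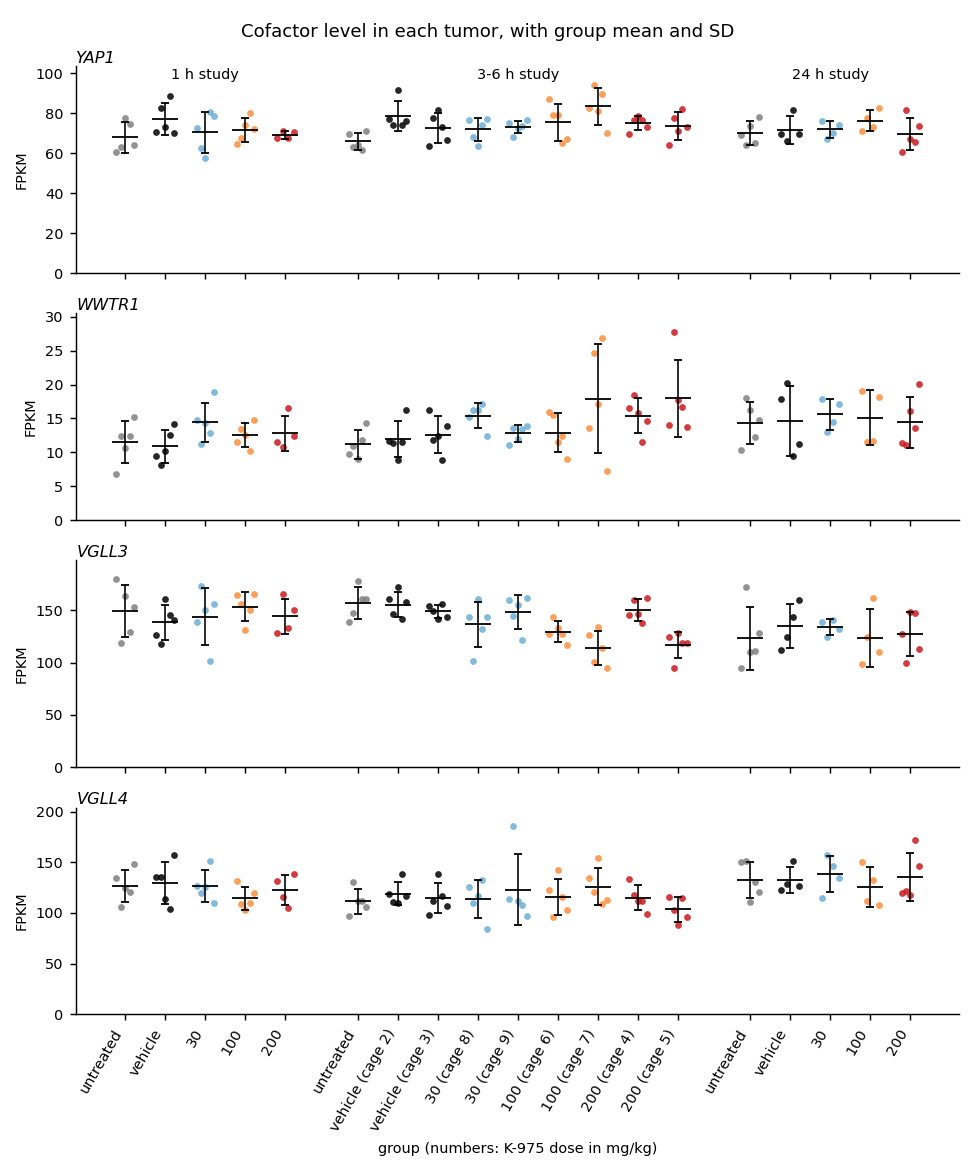
Level of YAP1, WWTR1, VGLL3 and VGLL4 (FPKM, y axis from 0) in each of the 91 tumors (points), by group on the x axis, where numbers are K-975 doses in mg/kg, with the group mean and SD. VGLL3 is lowest in cage groups 7 (100 mg/kg) and 5 (200 mg/kg) of the 3-6 h study, where its means are 114 and 117 against 152 with vehicle, and WWTR1 has its widest spread there.

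**Figure D2:**
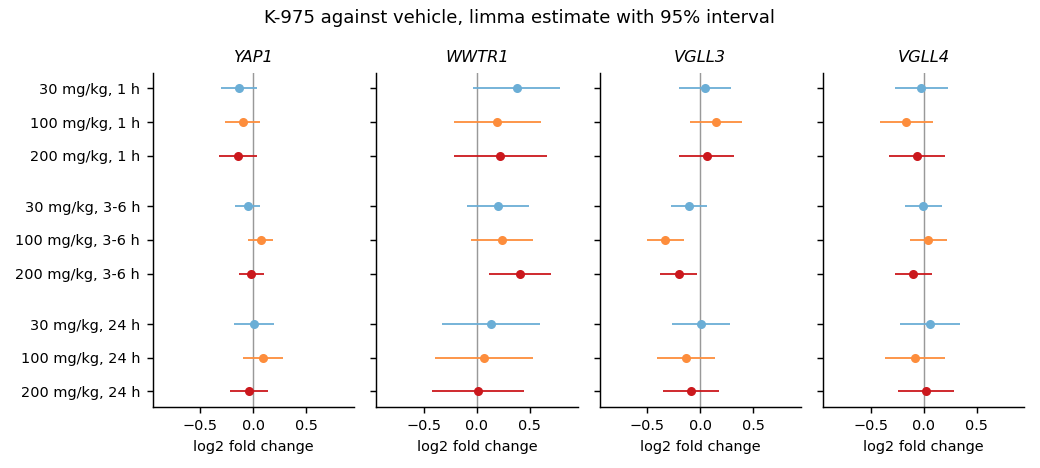
Log2 fold change of each dose against vehicle of the same study (x axis; points, limma estimates; bars, 95% intervals), for the 4 tested genes. The intervals of YAP1 and VGLL4 include 0 in all 9 comparisons, those of VGLL3 lie below 0 at 100 and 200 mg/kg at 3-6 h and that of WWTR1 lies above 0 at 200 mg/kg at 3-6 h, before adjustment.

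The cage groups of the 3-6 h study separated the VGLL3 values further. In cage group 7 (100 mg/kg) they were 126, 100.4, 134, 114 and 94.7 FPKM, and in cage group 6, at the same dose, 127, 144, 133, 127 and 116. In cage group 5 (200 mg/kg) they were 124, 95.3, 128, 119 and 119, and in cage group 4, at the same dose, 145, 159.7, 146, 138 and 162. Each tumor of cage groups 5 and 7 was thus below the lowest vehicle tumor, as were 4 of 5 in cage group 6 and 1 of 5 in cage group 4. In cage groups 8 and 9 (30 mg/kg) 2 and 1 of 5 were. The share of all genes that separate cage groups as fully, from vehicle or from each other, was not computed, so these counts are descriptions.

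Against the 10 vehicle tumors, VGLL3 fell in cage group 7, to 114 ± 16.6 FPKM (SD, n = 5) from 152 ± 9.74 (n = 10), a log2 fold change of -0.43 (SE 0.107, 95% interval -0.64 to -0.21, limma adjusted p = 0.0212). Cage group 7 was dosed in 10 mL/kg and vehicle in 20 mL/kg, which cannot be told apart from the dose. It is also a single cage group, so effects of cage, hour and dose cannot be told apart. The hours of the vehicle cage groups are not labelled either, so part of the vehicle tumors may be from another hour. This was the only one of 24 tests of a cofactor by cage group that passed, in a comparison where 1.33% of all genes did, and 5 of the 24 had an unadjusted p under 0.05. Without replicate 5 of that cage group the value was -0.36 (limma adjusted p = 0.0899), and without its replicate 2 it was -0.38 (adjusted p = 0.0717), so the call rests on each of these tumors. In cage group 5 the value was -0.38 (SE 0.107, limma adjusted p = 0.0970), with 0.276% of all genes past the threshold. Cage groups 4, 6, 8 and 9 gave -0.02, -0.23, -0.17 and -0.04, with 0.00767%, 0%, 0% and 0.0307% of all genes past it.

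Between cage groups of the same dose the differences did not pass. VGLL3 in cage group 5 was lower than in cage group 4 by 0.36 on the log2 scale, with all 5 tumors below those of cage group 4, and the adjusted p was 0.441 by limma (0.0153% of all genes passed). Between cage groups 7 and 6 the difference was -0.20 (limma adjusted p = 0.757; 0.046% of all genes passed). Sampling time cannot be assigned to a cage group, so cage and time cannot be told apart here.

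WWTR1 in cage group 7 was 13.7, 24.7, 17.1, 26.8 and 7.32 FPKM, which holds both the lowest of the 3-6 h tumors and the second highest. Its log2 fold change there was 0.41 (SE 0.179, limma adjusted p = 0.272), and without replicate 5, the lowest tumor, it was 0.68 with an adjusted p of 0.0318. In cage group 5 WWTR1 was 14.0, 27.7, 17.7, 16.6 and 13.8, a log2 fold change of 0.49 (limma adjusted p = 0.277), of which replicate 2 held both the highest WWTR1 and the lowest VGLL3. In cage groups 4, 6, 8 and 9 the values were 0.31, 0.06, 0.32 and 0.08, none past the threshold. YAP1 and VGLL4 gave log2 fold changes of -0.07 to 0.14 and of -0.17 to 0.11 over the 6 cage groups.

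**Figure D3:**
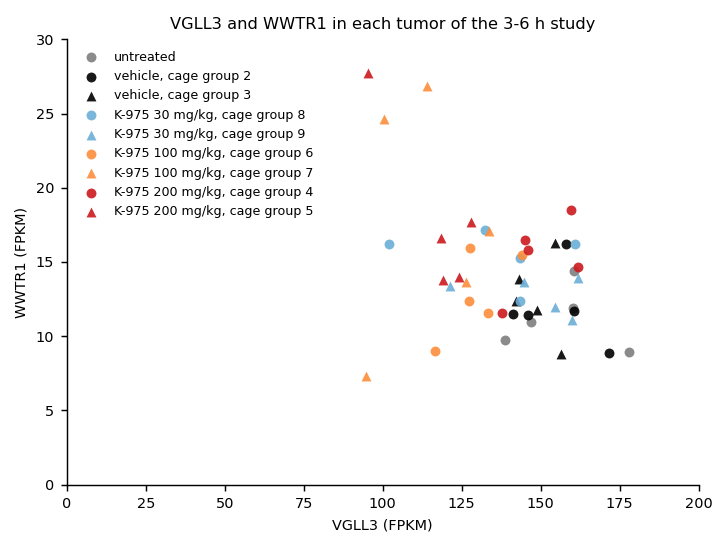
VGLL3 (x axis) against WWTR1 (y axis), both in FPKM, in each tumor of the 3-6 h study, coloured by treatment with a symbol for each cage group. The tumors of cage groups 5 and 7 (triangles at 200 and 100 mg/kg) lie to the left of all vehicle tumors, at a VGLL3 of at most 134, and 3 of them have the highest WWTR1 values, from 24.7 to 27.7.

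Some fibroblast markers and depth also differed between groups of the 3-6 h study, and not only in cage group 7. Of the 4 fibroblast markers PDGFRA was higher there (log2 fold change 0.92, limma adjusted p = 0.0424), and the median over PDGFRA, PDGFRB, DCN and LUM was 0.90. The summed FPKM of all 4 was 28.1 to 45.2 in cage group 7, 32.4 to 45.3 in cage group 5 and 28.9 to 44.7 with vehicle, most of it PDGFRB, with a median of 32.0 over the 91 tumors. Without PDGFRB the sum was 2.16 to 7.36 in cage group 7, 2.05 to 6.17 in cage group 5 and 0 to 2.86 with vehicle. It was also 1.16 to 10.7 in cage group 6, 0 to 6.48 in cage group 4, 0.134 to 9.175 in cage group 8 and 0.602 to 5.52 in cage group 9. In untreated tumors, which had a VGLL3 of 139 to 178, it was 0.683 to 8.94. In these bulk samples fewer cells of a type and less RNA per cell cannot be told apart, and the treatment of mouse reads is not given in the sources used here. The relative depth of a library, read from the size of its rarest values, was 0.478 to 0.864 in cage group 7, 0.662 to 0.980 in cage group 5 and 0.661 to 1.18 with vehicle. The 5 vehicle libraries no deeper than the deepest of cage group 5 had VGLL3 values of 143 to 172, and the 2 no deeper than the deepest of cage group 7 had 156 and 172. Replicate 2 of cage group 7, at 0.478, was shallower than any vehicle library. The parts of fibroblasts and of depth in the result were not tested.

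The dose trend, as log2 change per 100 mg/kg, passed for 0 of 4 genes in each study by limma, and 2 of the 12 tests had an unadjusted p under 0.05. At 3-6 h it was 0.17 for WWTR1 (SE 0.067, limma adjusted p = 0.436) and -0.10 for VGLL3 (SE 0.040, adjusted p = 0.468). Over all genes 0%, 0.215% and 5.61% passed at 1 h, 3-6 h and 24 h. The effect of 200 mg/kg was also compared between studies, and 0 of 12 tests passed, 0 of them with an unadjusted p under 0.05. For VGLL3 the difference of the 3-6 h effect from the 1 h effect was -0.26 (95% interval -0.57 to 0.05, limma adjusted p = 1.00) and that of the 24 h from the 3-6 h effect 0.11 (-0.20 to 0.43, adjusted p = 0.785). For WWTR1 these were 0.18 (adjusted p = 1.00) and -0.39 (adjusted p = 0.477, limma). Over all genes 0% passed for 3-6 h against 1 h, 1.72% for 24 h against 3-6 h and 0.583% for 24 h against 1 h. A difference in VGLL3 between times is therefore not shown.

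The vehicle itself changed 0 of the 4 genes in any study by limma, with 0% of all genes past the threshold at 1 h, 0% at 3-6 h and 0% at 24 h. Of the 12 tests, 2 had an unadjusted p under 0.05, both of YAP1, which was 77.0 ± 8.12 FPKM with vehicle against 67.8 ± 7.58 untreated at 1 h and 75.4 ± 7.72 against 65.8 ± 4.21 at 3-6 h (limma adjusted p = 1.00 and 0.936). Between the untreated tumors of different studies 0 of 12 tests passed by limma, and 2 had an unadjusted p under 0.05, both of VGLL3. The untreated tumors had VGLL3 values of 94.5, 172, 109.9, 111 and 128 FPKM at 24 h and 139, 147, 178, 160.4 and 160.6 at 3-6 h, a log2 difference of -0.37 (SE 0.123, limma adjusted p = 0.0660), and the differences were -0.29 between 24 h and 1 h (adjusted p = 0.429) and 0.09 between 3-6 h and 1 h (adjusted p = 0.896, limma). Without replicate 2 of the 24 h group, the highest of them, the first of these was -0.50 with an adjusted p of 0.00691. Over all genes 4.36% passed between these untreated groups, 0.0997% between 3-6 h and 1 h and 0.00767% between 24 h and 1 h, so the doses are compared only within a study.

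The rest of the pathway gives the setting for these values. Of the TEAD genes, TEAD1 was the most abundant with a median of 126 FPKM, followed by TEAD4 with 40.6, TEAD3 with 12.4 and TEAD2 with 8.11 (n = 91), so that VGLL3 and VGLL4 were near TEAD1 in level. At 200 mg/kg and 24 h TEAD4 fell by 0.74 on the log2 scale (limma adjusted p = 3.61e-05), and the other 3 TEAD genes did not pass. Of 22 YAP/TAZ-TEAD target genes 8 fell and 0 rose, where 7.41% of all genes passed. Among the 8 were IGFBP3 (-1.80), CCN2 (-1.44), F3 (-1.43), CCN1 (-1.26), NT5E (-1.04) and GADD45A (-0.56). The list median was -0.46, beside 0 of 4 cofactors passing and a cofactor median of -0.02. This list and those below were chosen with earlier results of these data known, so their counts are descriptions and not an independent test.

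Of the 16 tested genes of the Hippo kinase module and its upstream regulators, 4 fell at 200 mg/kg and 24 h and 0 rose, beside 470 that fell and 496 that rose of all 13036 genes (7.41% in all): WWC1, which encodes the scaffold KIBRA (-0.64), FRMD6 (-0.50), STK4, which encodes the kinase MST1 (-0.42), and WWC2 (-0.33). Of the 16 YAP/TAZ binding and turnover proteins 0 passed by limma. Of 5 other TEAD-binding cofactors FAM181A and FAM181B were listed at 0 in all 91 tumors, and NCOA1, NCOA2 and NCOA3 did not pass.

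At 3-6 h the target genes AMOTL2, CCN1 and CCN2 passed downward at both 100 and 200 mg/kg pooled over cage groups. AJUBA, a LIM protein that binds the LATS kinases, did as well. Over all genes 0.43% and 0.069% passed in these comparisons. The genes named in this paragraph were chosen after their values were seen. In cage group 7, where VGLL3 fell and 1.33% of all genes passed, 3 of 22 target genes were lower (CCN1 by a log2 change of -1.04, AMOTL2 by -0.82 and CCN2 by -0.65). TEAD4 (-0.42), WWC1 (-0.29), WWC2 (-0.37) and AJUBA (-0.53) were lower there as well. In cage group 5, where 0.276% of all genes passed, 4 of 22 target genes were lower, with CCN1 at -0.86, AMOTL2 at -0.72 and ANKRD1 at -0.87.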

How the data were processed

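RNA of 94 NCI-H226 xenograft tumors (RNAlater, miRNeasy) was made into KAPA RNA HyperPrep libraries, enriched with KAPA HyperCap probes and read as paired ends on a NextSeq instrument. The authors deposited FPKM values, with 1 column per tumor. The submitters' processing notes name STAR and GRCh38, without a version. The quantification tool and the handling of mouse reads are not given in the sources used here. FPKM hold no read counts, so depth in reads is unknown and no counting interval was computed. Relative depth was read from 1443 rarely detected genes (0.478 to 1.62 in 91 libraries).

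Of 20555 entries 316 repeats of a gene ID were left out, keeping the entry with the highest sum, and 32 blank cells were read as 0. The starts in the table count from 0 (16477 of 18254 IDs found in GENCODE 29 begin 1 base before it) and are printed from 1. Groups came from the labels (19 groups). limma 3.58.1 (R 4.3.3; lmFit with 1 coefficient per group, eBayes with trend and robust, two-sided) was run on log2(FPKM + 1) for the 91 libraries with at least 10000 genes at an FPKM of at least 1. The script was tested on simulated data. Adjusted p-values are Benjamini-Hochberg values over all genes tested. Cage groups of a dose were averaged at 3-6 h. Alternatives were all 94 libraries, a pseudocount of 0.1, no filter, quantile normalization, a fit of only the groups compared, and each library left out in turn.

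The members, gene lists and tests were chosen with earlier results of these data known. The members are named in every comparison, and the other genes are the 3 with the highest rho per member and, at 200 mg/kg and 24 h, up to 6 genes past the threshold per list. A planned search of the proteins for motifs was not run. Genes named at 3-6 h were chosen after their values were seen. The filter was passed by 2 of 7 skeletal muscle, 3 of 6 endothelial, 5 of 5 immune and 0 of 3 adipocyte markers. Of those tested, 0 were past the threshold at 200 mg/kg and 24 h, at 100 and 200 mg/kg at 3-6 h and in cage groups 5 and 7. Of the 11 mesothelial markers, all tested, MSLN (0.40), CALB2 (0.39) and KRT19 (0.32) passed upward at 200 mg/kg and 24 h and 0 downward. The median log2 fold change of that list was -0.03, in a comparison where 7.41% of all genes passed.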

Additional observations from a re-analysis of the deposited data

Results flagged for a closer look

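In 76 groups of 4 or 5 tumors (19 groups for each of 4 genes), 4 held a tumor whose gap to its nearest neighbour took up most of the range of the group, and chance gives about 1 in 20 groups. Cage group 5 (200 mg/kg, 3-6 h) held 2 of these values in the same tumor, replicate 2, with a WWTR1 of 27.7 FPKM (the next was 17.7) and a VGLL3 of 95.3 (the next was 119). The other values were a VGLL4 of 186 in replicate 2 of cage group 9 (30 mg/kg, next 114) and a YAP1 of 91.4 in replicate 3 of vehicle cage group 2 (next 77.2).

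The libraries left out for few detected genes also held values above those of all 34 untreated and vehicle tumors. VGLL2 was 6.14 FPKM at 200 mg/kg and 1 h replicate 1 and 10.1 at 100 mg/kg and 24 h replicate 5, against at most 0.691 in control tumors. In that 24 h library WWTR1 was 39.6 (controls at most 20.1) and VGLL3 180.3 (controls at most 179.7), while YAP1 was 36.1 and VGLL4 51.7. FPKM are scaled to the library total, and these libraries held 8531 and 7196 genes at an FPKM of at least 1.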

How the results depend on the processing

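With all 94 libraries in the fit, 3 cofactors were called at 30 mg/kg and 24 h, where replicate 1 lists all members at 0: YAP1 turned to -1.23, VGLL3 to -1.41 and VGLL4 to -1.36, and WWTR1 to -0.67 (uncalled). That fit also turned WWTR1 at 200 mg/kg and 1 h to -0.53 and YAP1 at 100 mg/kg and 24 h to -0.12, and VGLL3 in cage group 7 kept -0.43 but lost the call (limma adjusted p = 1.00). Quantile normalization turned WWTR1 at 200 mg/kg and 24 h to -0.032. Fitting only the groups compared called 1 cofactor at 100 mg/kg and 3-6 h, VGLL3 (adjusted p = 0.0431), as did leaving out replicate 3 of cage group 7 (adjusted p = 0.0432; 0 to 1 called over the libraries left out). The cause was not tested. In cage group 7, VGLL3 ran from -0.49 to -0.36 with 1 library left out, and its call held under the pseudocount of 0.1, no filter, quantile normalization and the groups compared alone (adjusted p 0.0223 to 0.0452).

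Leaving out 1 library turned the sign of these uncalled log2 fold changes near 0. At 30 mg/kg and 1 h the ranges were -0.030 to 0.16 for VGLL3 and -0.094 to 0.052 for VGLL4, and at 200 mg/kg and 1 h -0.0080 to 0.11 and -0.14 to 0.0091. At 30 mg/kg and 24 h they were -0.031 to 0.071 for YAP1, -0.040 to 0.30 for WWTR1, -0.082 to 0.090 for VGLL3 and -0.0053 to 0.14 for VGLL4. At 100 mg/kg and 24 h WWTR1 ran from -0.11 to 0.23. At 200 mg/kg and 24 h they were -0.10 to 0.019 for YAP1, -0.16 to 0.17 for WWTR1 and -0.065 to 0.090 for VGLL4. At 3-6 h they were -0.080 to 0.050 for VGLL4 at 30 mg/kg, -0.043 to 0.0075 for YAP1 at 200 mg/kg, -0.073 to 0.029 and -0.048 to 0.0093 for VGLL3 in cage groups 9 and 4, and -0.016 to 0.17 for WWTR1 in cage group 6. Of the counts of cofactors called, 299 of 300 with a library left out and 88 of 90 under other settings were the same as reported.

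No paired analysis was possible because the labels give the tumors no numbers that are shared between groups. Precision was limited by the 4 or 5 tumors a group: for WWTR1 at 200 mg/kg and 24 h the unadjusted 95% interval ran from -0.43 to 0.45.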
